A study of Mus musculus with 8 samples.

Results

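The clustered protocadherins are cell-surface proteins of the cadherin superfamily encoded by neighbouring genes in an alpha, a beta and a gamma cluster. Their members were taken as every row of the deposited gene table whose symbol begins with Pcdha, Pcdhb, Pcdhga, Pcdhgb or Pcdhgc followed by a member number or a C-type name, which gave 58 of 24539 genes. These were 14 alpha, 22 beta and 22 gamma genes. The libraries were made from polyadenylated RNA of mouse kidney nephron progenitors at E18.5, the mesenchymal cells that form nephrons, sorted by the fluorescence of Six2GFPcre, a GFP and Cre fusion made in these cells. All 8 libraries carry Six2GFPcre. The 2 KO-labelled libraries have the genotype Smo c/c, the 2 Het-labelled libraries Smo c/+, the 2 WT-labelled libraries Smo +/+, and the 2 SmoM2-labelled libraries Smo +/+ with a Rosa26 SmoM2/+ allele, from which Cre turns on an active form of Smo. Cre acts only where Six2GFPcre is made, so Smo is changed in that lineage. Smo carries Hedgehog signals across the cell membrane, and the study varied its dose.

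Each alpha and gamma gene has a large variable exon of its own, with its own promoter, which encodes the outer part of the protein and the membrane span. This exon is spliced to constant exons that are common to the whole cluster and encode a shared inner end. Beta genes consist of a variable exon without constant exons. In neurons, where the family is best known, each cell uses a few of the variable promoters, CTCF and cohesin loop them to distant enhancers, and matching sets of the proteins on touching membranes let a cell tell its own branches from those of others. The C-type members Pcdhac1, Pcdhac2, Pcdhgc3, Pcdhgc4 and Pcdhgc5 sit at the ends of the alpha and gamma clusters and are used more broadly than the others.

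All clusters lie on the forward strand of mouse chromosome 18. In the GENCODE M21 annotation of GRCm38, the sequence that mm10 names, the alpha cluster spans chr18:36930184-37187661, the beta cluster chr18:37264938-37524479 and the gamma cluster chr18:37661793-37841873. Of the members, 13 alpha, 22 beta and 22 gamma genes were matched by symbol, and Pcdha10 was not matched. The constant exons held 2860 bases that are common to the matched alpha genes and 2116 bases common to the gamma genes. Those of the gamma cluster lie at chr18:37825021-37825079, chr18:37833265-37833353 and chr18:37839903-37841870.

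Listed counts per library were between 4422305 and 10305398, lowest in the KO-labelled libraries. Six2, which defines the sorted cells, was between 1132 and 2105 CPM, reads scaled to a common library size. Smo checks the labels: its counts were 59 and 51 under the KO label, 108 and 141 under Het, 3893 and 3442 under WT and 5915 and 5443 under SmoM2. The Het-labelled level therefore goes against its label, and every direction below is between libraries as labelled. The labels give neither a batch nor whether replicates came from separate embryos, so p-values measure the spread between these libraries. Xist had 4 and 18238 counts under WT and 5 and 12330 under SmoM2, and the Y-linked Ddx3y 902 and 0, and 962 and 0. These 2 pairs each held a male and a female library, so they were not repeats of 1 sample, and their spread includes sex. In the KO- and Het-labelled pairs, each of a single sex, the spread may be technical.

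The deposited counts of alpha and gamma members repeat the same reads. Within each library the 22 gamma genes had nearly equal counts. In WT-labelled replicate 1 the lowest was 3764 and the median 3804, and only Pcdhgc3 stood far above, at 6292. In KO-labelled replicate 1 all 14 alpha genes were listed with exactly 12 counts. The 8 Ugt1a genes of the table, another cluster whose genes share their last exons, showed the same pattern, with 5 counts for each of them in KO-labelled replicate 1. A read on exons common to several genes was thus counted for each of them. Summed as deposited, the gamma genes took between 0.734% and 1.04% of the listed counts, and with each shared read counted a single time between 0.0593% and 0.0838%.

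**Figure D1:**
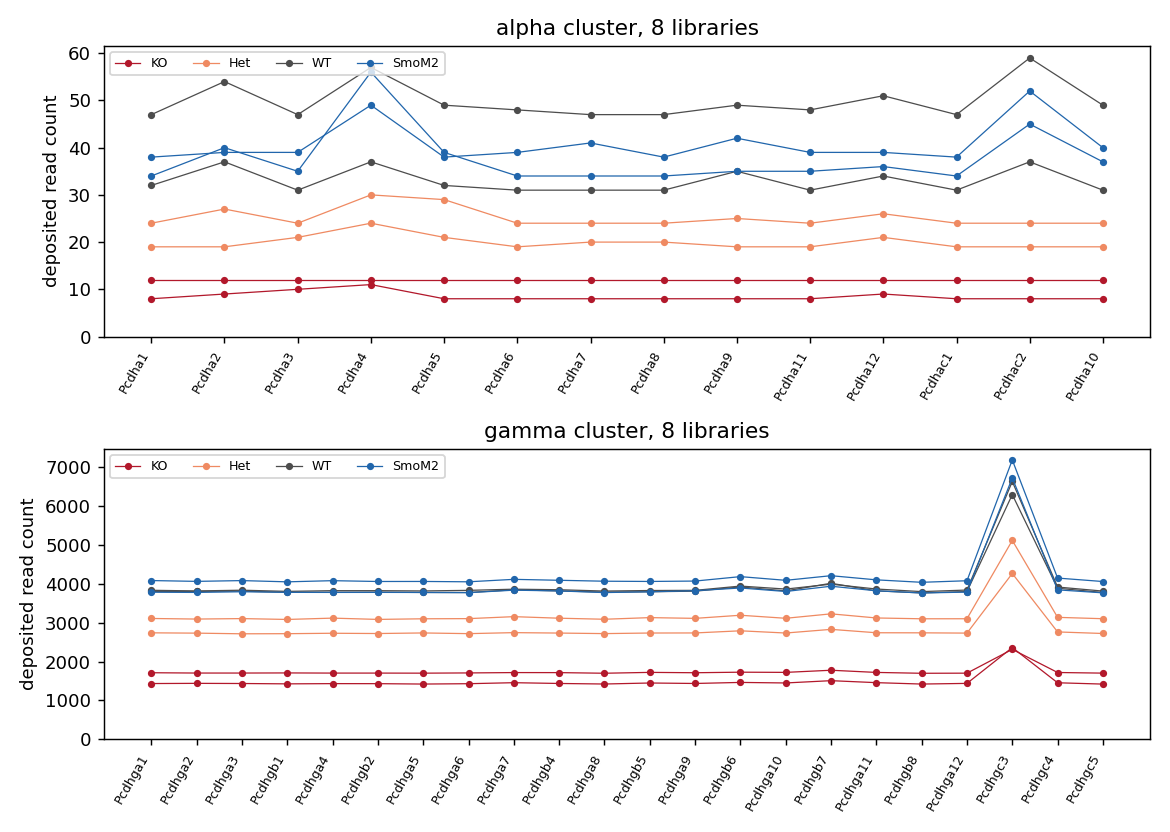
Deposited read counts (y axis) of the alpha and gamma genes (x axis, in chromosome order, with Pcdha10, which has no matched position, at the right end of its panel). Each line is 1 of the 8 libraries, coloured by labelled group; the gamma lines are flat apart from Pcdhgc3.

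The lowest count of a cluster in a library was therefore taken as the reads its genes share, and the rest of each member's count as its own reads. Own reads are lower bounds, short by whatever the lowest member itself had, and this shortfall is the same for every gene of a cluster in a library. Beta genes have no constant exons, so all their reads were taken as their own. Reads may still be split between beta genes of similar sequence, and the annotated spans of Pcdhb21 and Pcdhb22 overlap. This was not tested. Tests were edgeR quasi-likelihood tests over all genes with Benjamini-Hochberg adjustment, and a call is an adjusted p under 0.05. Read counts given below are not scaled for depth, so groups are compared on the CPM scale. This split was chosen after the data were seen, and the sums of counts as deposited are given beside it.

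With each read counted a single time, KO-labelled libraries had the lowest level of all 3 clusters. The gamma cluster was at 585 and 613 CPM under the KO label, 790 and 821 under Het, 695 and 839 under WT and 848 and 883 CPM under SmoM2. The beta cluster was at 106 and 105 CPM under the KO label, 154 and 146 under Het, 139 and 141 under WT and 139 and 141 CPM under SmoM2. In both clusters the KO-labelled libraries lay below the other 6. For gamma the Het- and WT-labelled libraries overlapped, and for beta the Het-labelled libraries were the highest. The alpha cluster was scarce, at 2.68 and 3.29 CPM under the KO label, 4.31 and 7.03 under Het, 8.27 and 6.37 under WT and 7.94 and 10.03 CPM under SmoM2. These levels rest on 12 to 88 alpha reads per library. In bulk samples, fewer cells that use a gene and less RNA per cell cannot be told apart.

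**Figure D2:**
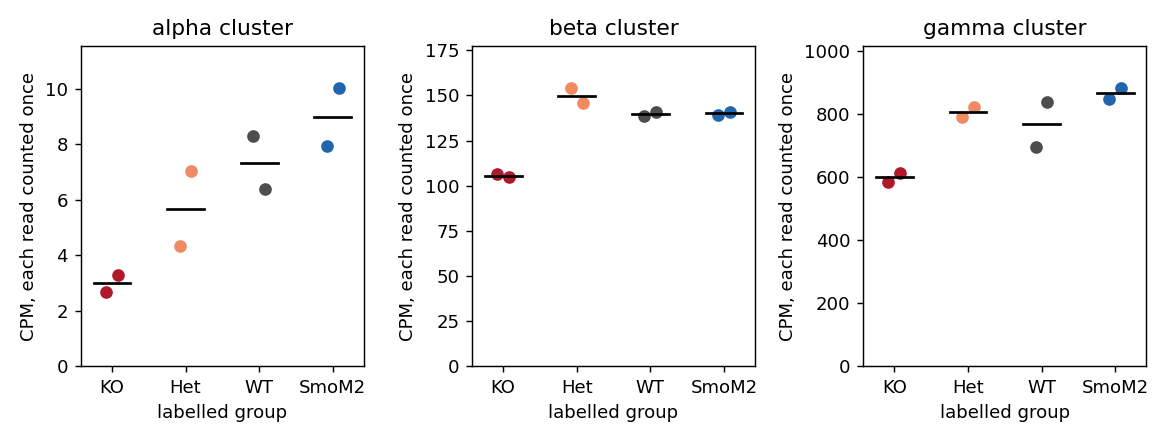
Level of each cluster (y axis, CPM with each read counted a single time) by labelled group (x axis). Points are the 2 libraries of a group and bars their mean; both KO-labelled libraries are the lowest in each panel.

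Against the WT-labelled libraries, the beta cluster fell from 140 ± 1.33 to 106 ± 1.10 CPM (SD, n = 2) in the KO-labelled libraries, a log2 change of -0.40 (SE 0.11, edgeR adjusted p 0.0249). The alpha cluster fell by 1.29 on the log2 scale (SE 0.37, edgeR adjusted p 0.0265). The gamma cluster missed the threshold at -0.36 (SE 0.13, edgeR adjusted p 0.0638), with a 95% interval from -0.64 to -0.08. Summed as deposited, which weights the constant exons 14 or 22 times, the changes were -0.90 for alpha (edgeR adjusted p 0.0176), -0.43 for beta (edgeR adjusted p 0.0198) and -0.21 for gamma (edgeR adjusted p 0.300). The alpha call was lost when trends over gene length were removed (log2 -0.68, edgeR adjusted p 0.0767), and the beta call when those over GC content and length were (log2 -0.35, edgeR adjusted p 0.0519). Counted a single time, alpha was not called without KO-labelled replicate 1 (edgeR adjusted p 0.142), KO-labelled replicate 2 (0.0669) or WT-labelled replicate 1 (0.103). Summed as deposited, the beta change stayed between -0.44 and -0.40 when single libraries were left out. The beta call was lost without either KO- or either WT-labelled library.

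Against the Het-labelled libraries, the KO-labelled beta cluster was lower at log2 -0.51 (SE 0.11, edgeR adjusted p 0.0217). This call was lost without either KO- or either Het-labelled library. Summed as deposited, the log2 changes with single libraries left out lay between -0.57 and -0.47. The gamma cluster changed by -0.43 (SE 0.13, edgeR adjusted p 0.0575) and the alpha cluster by -0.91 (SE 0.38, edgeR adjusted p 0.153), neither past the threshold. Summed as deposited the gamma change was -0.36 (edgeR adjusted p 0.114). In this comparison sex is tied to the label: Ddx3y, a Y-linked gene, had 201 and 208 counts under the KO label and 0 in both Het-labelled libraries, while Xist had 2 and 1 against 10260 and 9663. Sex and label cannot be told apart there. The WT-labelled libraries held 1 of each pattern, replicate 1 male and replicate 2 female, as did the SmoM2-labelled libraries. KO- and WT-labelled libraries thus also differ in sex, as do Het- and WT-labelled libraries. Between the male and the female WT-labelled library, beta was at 139 and 141 CPM, gamma at 695 and 839 CPM, and Pcdhgc3 own reads at 238 and 311 CPM. The part of sex in the KO- and Het- against WT-labelled changes was not tested.

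No cluster differed from the WT-labelled level in the Het- or SmoM2-labelled libraries by the edgeR test. The Het-labelled change was -0.39 for alpha (95% interval -1.09 to 0.31), 0.10 for beta (-0.14 to 0.34) and 0.07 for gamma (-0.21 to 0.35). In the SmoM2-labelled libraries it was 0.29 for alpha (-0.37 to 0.94), 0.01 for beta (-0.24 to 0.25) and 0.17 for gamma (-0.10 to 0.45). The alpha intervals were the widest, and its reads were the fewest.

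Within the gamma cluster, a single gene carried most of the own reads. Pcdhgc3, a C-type member that in neurons binds Axin1 and promotes dendrite branching, had 615 and 939 own reads under the KO label, 2032 and 1551 under Het, 2528 and 2831 under WT and 3146 and 2957 under SmoM2. It made up between 66.6% and 77.6% of all own reads of the cluster in each library. Per kilobase of own sequence it was at 53.4 and 80.1 CPM under the KO label, 107 and 103 under Het, 92.5 and 121 under WT and 126 and 134 CPM under SmoM2. The KO-labelled libraries were the lowest and the SmoM2-labelled libraries the highest, with no overlap of either with another group.

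Pcdhgc3 own reads fell from 274 ± 51.8 CPM in the WT-labelled to 172 ± 48.6 CPM (SD, n = 2) in the KO-labelled libraries, a log2 change of -0.68 (SE 0.18, edgeR adjusted p 0.0220). The fall against the Het-labelled libraries was of like size (log2 -0.65, SE 0.18, edgeR adjusted p 0.0461). SmoM2-labelled libraries differed from the WT-labelled by 0.29 (SE 0.18, edgeR adjusted p 0.815), not past the threshold. Both KO-labelled changes rest in part on KO-labelled replicate 1: without it they were -0.42 (edgeR adjusted p 0.157) and -0.39 (edgeR adjusted p 0.229), while without replicate 2 the former was -1.01. The KO- against WT-labelled call was also lost without WT-labelled replicate 2 (log2 -0.50, edgeR adjusted p 0.109). The KO- against Het-labelled call was also lost without either Het-labelled library (edgeR adjusted p 0.198 and 0.140) or either SmoM2-labelled library (0.0569 and 0.0562). Neither fall was called with trends over length (edgeR adjusted p 0.0586 and 0.0736) or over GC content and length (0.0518 and 0.215) removed.

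The reads shared by all gamma genes, which lie on the constant exons at the 3′ end, were less different between KO- and WT-labelled libraries than Pcdhgc3 own reads, although this contrast was not tested. They were at 379 and 311 CPM under the KO label, 416 and 465 under Het, 354 and 417 under WT and 416 and 439 CPM under SmoM2. From WT to KO they differed by -0.16 on the log2 scale (SE 0.14, edgeR adjusted p 0.435). KO-labelled replicate 1 stood apart in the balance of both kinds of read. It had 1.84 shared reads per own read, while the other 7 libraries had between 0.966 and 1.31. The same library had 12 shared and 0 own alpha reads. The constant exons are at the 3′ end and the variable exons at the 5′ end, and that library also had the lowest Pcdhgc3 level. The part of RNA quality in these values was not tested.

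The density of shared reads per kilobase was above the summed density of own reads in every library. In the WT- and SmoM2-labelled libraries it was between 1.17 and 1.26 times the sum over the 22 variable exons, and in KO-labelled replicate 1 it was 2.21 times. The lengths of the constant exons come from GENCODE and those of the genes from the deposited table, so these ratios are approximate.

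Among the other gamma genes, Pcdhgb7 had the most own reads in every library. It had 78 and 88 under the KO label, 144 and 114 under Het, 248 and 191 under WT and 170 and 173 under SmoM2. Per kilobase, Pcdhgc3 was between 7.41 and 17.4 times as high as Pcdhgb7. The other members were lower, and in the WT-labelled libraries they reached from 0 for Pcdhgb8 to 6.08 CPM per kilobase for Pcdhgb6. Pcdhgb6 had 28 and 43 own reads under the KO label, 108 and 77 under Het, 153 and 142 under WT and 146 and 128 under SmoM2. Its level fell from 15.0 ± 0.859 to 7.84 ± 2.25 CPM (SD, n = 2) between WT- and KO-labelled libraries (log2 -0.93, SE 0.24, edgeR adjusted p 0.0188).

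Pcdhgc4, which supports the survival of neurons, had 20 and 34 own reads under the KO label, 54 and 48 under Het, 120 and 117 under WT and 109 and 80 under SmoM2. It fell by 1.01 on the log2 scale (SE 0.29, edgeR adjusted p 0.0274) from WT- to KO-labelled libraries. Without KO-labelled replicate 1 neither Pcdhgb6 (log2 -0.67, edgeR adjusted p 0.134) nor Pcdhgc4 (log2 -0.69, edgeR adjusted p 0.182) was called, and without WT-labelled replicate 2 their edgeR adjusted p were 0.0563 and 0.0843. Pcdhgc5, the last gene of the cluster, stayed at 20 own reads or fewer in every library.

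The gamma A and gamma B genes did not pass the test as groups. The 12 gamma A genes together were at 27.7 and 45.8 CPM of own reads under the KO label and 42.3 and 48.2 CPM under WT (log2 -0.30, SE 0.21, edgeR adjusted p 0.336). The 7 gamma B genes were at 35.7 and 42.3 CPM under the KO label and 48.7 and 48.2 CPM under WT (log2 -0.31, SE 0.14, edgeR adjusted p 0.125). Whether they differ from Pcdhgc3 in their change was not tested. In SmoM2- against WT-labelled libraries the gamma A change was 0.01 and the gamma B change -0.08, with edgeR adjusted p of 0.997 and 0.959.

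**Figure D3:**
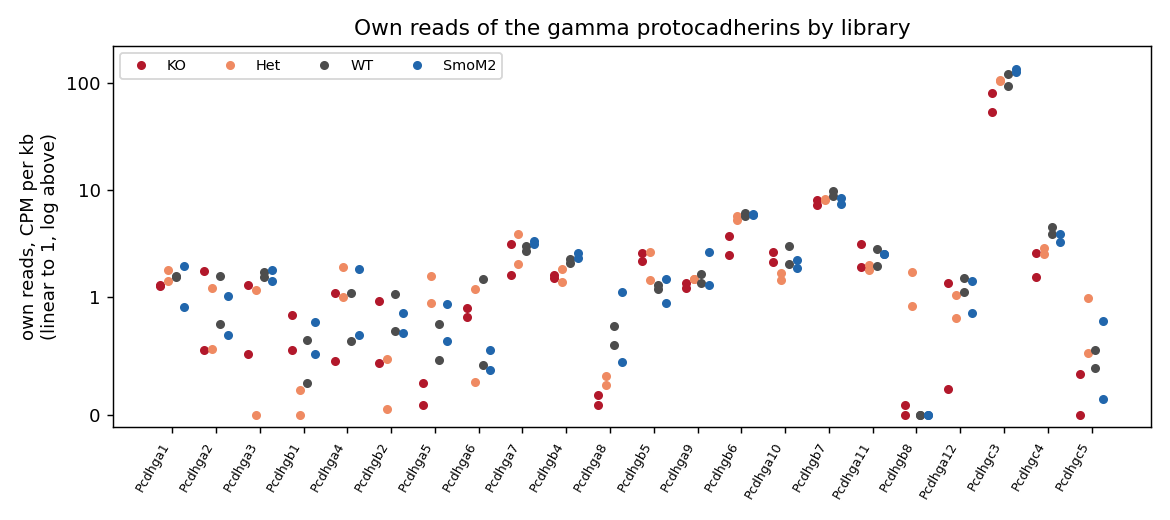
Own reads of each gamma gene in CPM per kilobase of own sequence (y axis, linear up to 1 and logarithmic above), in chromosome order (x axis). Points are the 8 libraries, coloured by labelled group; Pcdhgc3 lies between 53.4 and 134 and Pcdhgb7 is the next highest.

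Pcdhgb8 differed in pattern from its neighbours. GENCODE annotates it as a polymorphic pseudogene, a gene that is intact in some strains and broken in others. It was the lowest of the 22 genes in both WT-labelled, both SmoM2-labelled and 1 KO-labelled library, and had 1 own read in KO-labelled replicate 2. In the Het-labelled libraries it had 17 and 25 own reads. Because it sets the shared level in 5 libraries, its own reads are 0 there by construction, and no fold or test of it is used. Pcdhga5 had 3 and 1 own reads in the KO-labelled and 17 and 22 in the Het-labelled libraries. On own reads, with the KO-labelled level set at a floor of 3 counts per library, it was at least 4.57-fold lower. The fit without this floor called it lower at log2 -2.71 (SE 0.71, edgeR adjusted p 0.0360). That call was lost without either KO- or either Het-labelled library.

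Alpha genes were near the limit of detection. Shared alpha reads numbered 12 and 8 under the KO label, 19 and 24 under Het, 47 and 31 under WT and 38 and 34 under SmoM2. Own reads summed over the 14 genes were 0 and 7 under the KO label, 13 and 17 under Het, 41 and 27 under WT and 39 and 52 under SmoM2. On the CPM scale the KO-labelled libraries were the lowest in own reads without overlap, at 0 and 1.54, and in shared reads they overlapped the Het-labelled libraries, at 2.68 and 1.75 against 2.56 and 4.11. Between KO- and WT-labelled libraries the own-read sum differed by -2.12 on the log2 scale (SE 0.75, edgeR adjusted p 0.0614), outside the threshold.

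Pcdha4 and the C-type gene Pcdhac2 led the alpha own reads. Pcdha4 had 0 and 3 under the KO label, 5 and 6 under Het, 10 and 6 under WT and 11 and 22 under SmoM2. Pcdhac2, which in serotonin neurons spaces out axon branches, had 0 in all KO- and Het-labelled libraries, 12 and 6 in the WT-labelled and 14 and 11 in the SmoM2-labelled libraries. In the KO- and Het-labelled libraries it equals the lowest alpha count, so its own reads are 0 there by construction, and no fold is given. Pcdhac2 was the only alpha gene whose own reads passed the filter on low counts. It did so through the groups where it is high, so its test is not given. Pcdhac1 equalled the lowest alpha count in all 8 libraries.

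Beta genes were expressed in a broad set rather than led by a single member. Of the 22, 21 passed the filter, and Pcdhb1, the first gene of the cluster, had at most 3 counts in any library. Pcdhb17 was highest, with 85 and 65 reads under the KO label, 138 and 82 under Het, 184 and 146 under WT and 186 and 137 under SmoM2. On the scale of CPM per kilobase its group means lay between 4.99 and 5.38 in all 4 groups. The median beta gene was at 1.11 CPM per kilobase under the KO label, 1.60 under Het, 1.55 under WT and 1.58 under SmoM2. Olfactory receptor genes, which are mostly single-exon in their coding part, served for comparison. Of the 1125 in the table, between 5 and 16 had a count in each library. Together they lay between 0.00434 and 0.0128 CPM per kilobase. The beta cluster as a whole lay between 1.40 and 2.06 on that scale.

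The order of the beta genes was partly kept between libraries. Across the 21 genes other than Pcdhb1, Spearman's rho of levels per kilobase was between 0.732 and 0.840 for replicates of a group and between 0.466 and 0.881 for libraries of different groups. These values are across genes, which are not independent replicates, and the low counts of single members add noise to them.

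**Figure D4:**
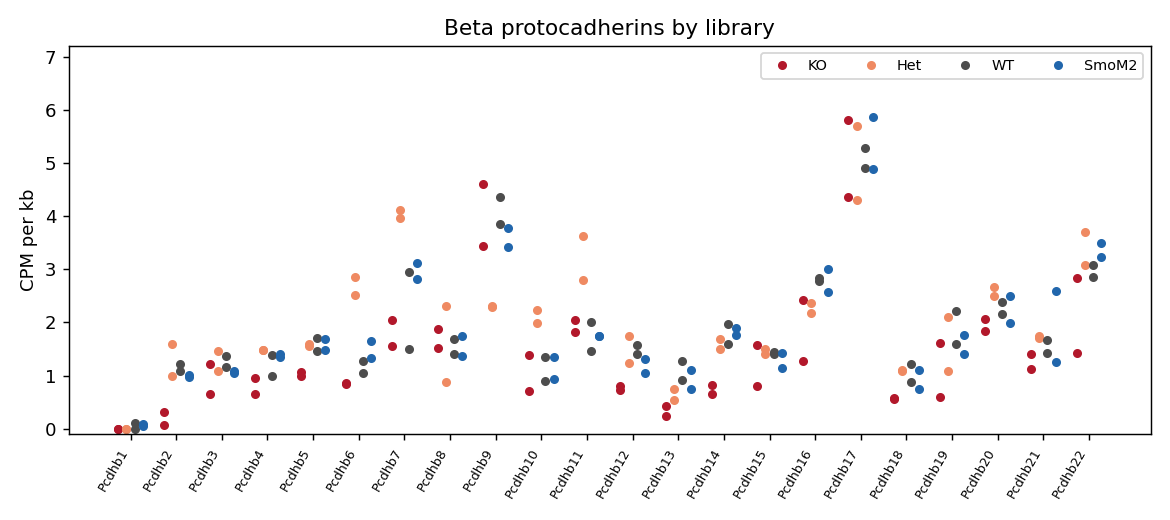
Level of each beta gene in CPM per kilobase (y axis), in chromosome order (x axis). Points are the 8 libraries, coloured by labelled group; Pcdhb17 is the highest in every group, and Het-labelled libraries are the highest for Pcdhb6, Pcdhb7, Pcdhb10 and Pcdhb11.

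Pcdhb2, Pcdhb13 and Pcdhb14 fell in KO- against WT-labelled libraries. Pcdhb2 had 4 and 1 reads under the KO label, 33 and 16 under Het, 32 and 31 under WT and 27 and 23 under SmoM2. Its mean was 0.556 ± 0.476 CPM (SD, n = 2) under KO against 3.21 ± 0.281 CPM under WT, a log2 change of -2.50 (SE 0.61, edgeR adjusted p 0.0146). The KO-labelled libraries did not overlap any other group.

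Pcdhb13 had 7 and 4 reads under the KO label, 15 and 16 under Het, 50 and 31 under WT and 27 and 35 under SmoM2. Its change was -1.73 (SE 0.49, edgeR adjusted p 0.0275), and the Het-labelled libraries lay between the others. Pcdhb14 had 10 and 13, 43 and 30, 72 and 50, and 59 and 56 reads in the same order of groups, and changed by -1.27 (SE 0.34, edgeR adjusted p 0.0214). Pcdhb2 was lost without KO-labelled replicate 2 (log2 -1.83, edgeR adjusted p 0.0853). Pcdhb13 was lost without either KO-labelled library or WT-labelled replicate 1, and Pcdhb14 without KO-labelled replicate 1 or WT-labelled replicate 1, with edgeR adjusted p up to 0.137.

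In KO- against Het-labelled libraries Pcdhb2, Pcdhb6 and Pcdhb7 fell. Pcdhb2 changed by -2.68 (SE 0.61, edgeR adjusted p 0.0245). Pcdhb6 had 9 and 9 reads under the KO label, 49 and 34 under Het, 26 and 27 under WT and 30 and 33 under SmoM2, and changed by -1.64 (SE 0.39, edgeR adjusted p 0.0264). Pcdhb7 had 32 and 25, 107 and 81, 110 and 48, and 96 and 94 reads in that order of groups, and changed by -1.16 (SE 0.33, edgeR adjusted p 0.0491). Pcdhb6 and Pcdhb7 were at their highest in the Het-labelled libraries, at 6.22 ± 0.550 and 14.2 ± 0.383 CPM (SD, n = 2). None of the 3 calls held without KO-labelled replicate 1, KO-labelled replicate 2 or Het-labelled replicate 1, with edgeR adjusted p between 0.0506 and 0.190.

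Het- and WT-labelled libraries differed in single beta genes in both directions, while the cluster total differed little. Pcdhb6 rose by 1.20 (SE 0.34, edgeR adjusted p 0.0228) and Pcdhb11 by 0.90 (SE 0.27, edgeR adjusted p 0.0306) in the Het-labelled libraries. Pcdhb11 had 33 and 30 reads under the KO label, 97 and 59 under Het, 56 and 66 under WT and 61 and 54 under SmoM2, and on the CPM scale both Het-labelled libraries lay above the other 6. Pcdhb9 fell by 0.83 on the log2 scale (SE 0.24, edgeR adjusted p 0.0252), from 12.5 ± 1.09 CPM in the WT-labelled to 7.02 ± 0.0121 CPM (SD, n = 2) in the Het-labelled libraries. In the KO-labelled libraries Pcdhb9 was at 12.3 ± 2.51 CPM, overlapping the WT-labelled libraries. DESeq2 called none of these 3. None was called without either Het-labelled library, Pcdhb6 and Pcdhb11 were lost without WT-labelled replicate 1, and Pcdhb6 and Pcdhb9 without WT-labelled replicate 2.

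Calls over all members were mostly falls in the KO-labelled libraries. Without Pcdhac2 and Pcdhgb8, 42 members were tested on their own reads. In KO- against WT-labelled libraries 6 of these were lower and none higher by the edgeR test, namely Pcdhgc3, Pcdhgc4, Pcdhgb6, Pcdhb2, Pcdhb13 and Pcdhb14. They are 14.3% of the 42, where 11.6% of all tested genes were called lower, 11.6% higher and 23.1% in either direction, so the share lies near that of all genes. Over all 44 with those 2 genes, 12 were lower and 1 higher at an unadjusted p under 0.05, as were 18.02% and 19.18% of all tested genes, and DESeq2 called 5 lower and none higher. On the counts as deposited 3 of 57 members, or 5.26%, were called lower against 11.4% of all genes (23.0% in either direction). In that table every alpha and gamma count holds the shared reads.

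In KO- against Het-labelled libraries 5 of the 42 members, or 11.9%, were lower by their own reads, against 5.19% of all tested genes (9.50% in either direction), and none was higher against 4.31%. The 5 were Pcdhgc3, Pcdhga5, Pcdhb2, Pcdhb6 and Pcdhb7. Over all 44, 2 were higher and 13 lower at an unadjusted p under 0.05, as were 13.9% and 13.4% of all tested genes. Over the same 44, DESeq2 called 3 lower and none higher, and with trends over GC content and length removed edgeR called 2 lower. With library totals from the RPKM values it called 4 lower and 1 higher. As deposited, 3 of 57 members were lower and none higher, where 5.10% of all genes were lower, 4.33% higher and 9.43% either. In Het- against WT-labelled libraries 2 of the 42 were higher and 1 lower, 4.76% and 2.38%, against 13.1% and 12.2% of all tested genes (25.3% in either direction). In SmoM2- against WT-labelled libraries no member was called by edgeR or DESeq2, and 0.223% of all tested genes were called by edgeR (0.156% higher and 0.0669% lower). No member had an unadjusted edgeR p under 0.05, where 3.90% of all tested genes were higher and 3.79% lower.

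The median change of the 44 members in KO- against WT-labelled libraries was -0.38, and that of all tested genes 0.03. Both KO-labelled libraries lay below both WT-labelled libraries in 12 of the 21 tested beta genes, or 57.1%, and in 11 of the 22 gamma genes, or 50.0%, while 29.9% of all tested genes did so. The opposite was seen in 0 beta genes and 1 gamma gene, against 32.1% of all genes. For KO- against Het-labelled libraries 14 of 21 beta genes, or 66.7%, were lower without overlap and 1 was higher, and 9 of 22 gamma genes, or 40.9%, were lower and 2 higher, while 27.7% of all genes were lower and 29.2% higher. The members share libraries and neighbouring sequence, so these counts are descriptions.

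**Figure D5:**
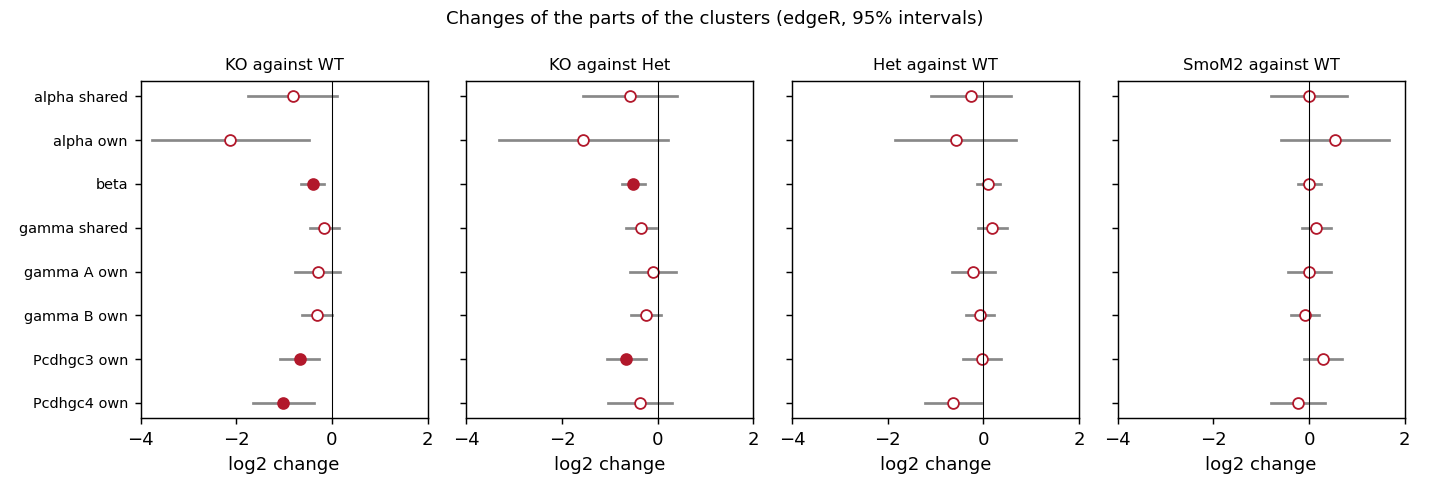
log2 changes (x axis) of the parts of the clusters (y axis) in the 4 comparisons, with 95% intervals from the edgeR fit. Filled points passed an adjusted p of 0.05: beta, Pcdhgc3 and Pcdhgc4 in KO- against WT-labelled libraries, and beta and Pcdhgc3 in KO- against Het-labelled libraries.

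Genes known to act on the chromatin of the clusters were taken as a list of 25, all of which were tested. In KO- against WT-labelled libraries 8 fell and none rose by the edgeR test (13 lower and 0 higher at an unadjusted p under 0.05), with a list median of -0.34. These 8 are 32.0% of the list, where 11.4% of all genes tested fell and 11.6% rose. At an unadjusted p under 0.05, 17.9% of all genes were lower and 19.2% higher. Rest, a repressor that binds the alpha cluster enhancer, was at 75.3 and 107 CPM under the KO label, 139 and 130 under Het, 184 and 204 under WT and 179 and 197 CPM under SmoM2. It fell by 1.08 on the log2 scale in KO- against WT-labelled libraries (SE 0.16, edgeR adjusted p 0.00119), by 0.56 against the Het-labelled (edgeR adjusted p 0.0496), and by 0.52 from WT- to Het-labelled (edgeR adjusted p 0.0289).

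Across the list, 7 fell and 1, the DNA methyltransferase Dnmt1, rose in Het- against WT-labelled libraries, and 5 fell in KO- against Het-labelled libraries. These falls are 28.0% and 20.0% of the list, against 12.2% and 5.10% of all genes. The rise is 4% of the list, against 13.1% of all genes. Nipbl, the cohesin loader, fell by 0.54 in KO- against WT-labelled (SE 0.12, edgeR adjusted p 0.00974) and by 0.39 in Het- against WT-labelled libraries (SE 0.12, edgeR adjusted p 0.0317). Wapl, which releases cohesin, and Stag2, a cohesin subunit, changed by -0.59 and -0.57 in the KO-labelled and by -0.64 and -0.72 in the Het-labelled libraries, each called. Mau2, the partner of Nipbl, and Wiz, which acts with CTCF and cohesin, were the other cohesin-linked genes that fell in the KO-labelled libraries. Ctcf itself was at 153 and 184 CPM under the KO label and 159 and 163 CPM under WT (log2 0.06, SE 0.13, edgeR adjusted p 0.746).

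The DNA demethylases Tet2 and Tet3 also fell, and Tet2 had the largest change of the list. Tet2 was at 25.5 and 26.6 CPM under the KO label, 44.1 and 43.1 under Het, 59.5 and 59.9 under WT and 77.0 and 71.4 CPM under SmoM2 (log2 -1.20 from WT to KO, SE 0.13, edgeR adjusted p 0.000253). Tet3 changed by -0.83 (SE 0.15, edgeR adjusted p 0.00369). Smchd1, which represses the clusters and the inactive X chromosome, was not called at -0.20 (SE 0.18, edgeR adjusted p 0.437). In SmoM2- against WT-labelled libraries no gene of this list was called by the edgeR test, and 1 had an unadjusted p under 0.05. The part of these genes in the levels of the clusters was not tested.

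Genes for partners and processing of the proteins gave 22 tested of 23. In KO- against WT-labelled libraries 6 fell and none rose by the edgeR test (11 lower and 0 higher at an unadjusted p under 0.05). The 6 are 27.3% of those tested, where 11.4% of all genes fell and 11.6% rose. Of all genes, 17.9% were lower and 19.2% higher at an unadjusted p under 0.05. Ncstn, a subunit of the gamma-secretase that cuts protocadherins in the membrane, changed by -0.72 (SE 0.13, edgeR adjusted p 0.00305), and Cyfip1, of the WAVE complex that the inner ends bind, by -0.62 (SE 0.14, edgeR adjusted p 0.0111). Adam10, which sheds the outer part, changed by -0.52, and Psen2, Wasf2 and Ret were also called. Ret, a receptor of the collecting duct tips, stayed at or below 1.96 CPM in every library. In Het- against WT-labelled libraries 3 of the list fell, 13.6% against 12.2% of all genes. In KO- against Het-labelled libraries none was called, where 4.33% of all genes were called higher and 5.10% lower. At an unadjusted p under 0.05, 2 were higher and 2 lower there, as were 14.0% and 13.4% of all genes. In SmoM2- against WT-labelled libraries none was called, with 2 at an unadjusted p under 0.05.

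Protocadherins outside the clusters did not follow a single direction in KO- against WT-labelled libraries. Of 12 genes, 6 were tested. There 1 was called higher and 1 lower, 16.7% each, against 11.6% and 11.4% of all genes. In SmoM2- against WT-labelled libraries all 6 changes were positive, and 1 was called, 16.7% against 0.156% of all genes called higher. In KO- against Het-labelled libraries 5 changes were negative and 1 positive, and 1 was called lower, 16.7% against 5.10%. Pcdh7 was at 20.8 and 22.4 CPM under the KO label, 44.0 and 41.6 under Het, 76.7 and 41.4 under WT and 80.8 and 84.7 CPM under SmoM2, and fell by 1.45 on the log2 scale in KO- against WT-labelled libraries (SE 0.25, edgeR adjusted p 0.00251). Pcdh19 rose by 1.00 (SE 0.33, edgeR adjusted p 0.0478). Pcdh8 was at 41.0 and 57.5 CPM under the KO label, 69.5 and 70.7 under Het, 35.9 and 49.1 under WT and 117 and 136 CPM under SmoM2. It rose by 1.57 in SmoM2- against WT-labelled libraries (SE 0.18, edgeR adjusted p 0.00784), a comparison in which no clustered member was called.

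Genes beside the clusters on chromosome 18 were mostly not called. Of 25 genes on this list 21 were tested, and in KO- against WT-labelled libraries 1 rose and 1 fell, 4.76% each against 11.6% and 11.4% of all genes, with a median of 0.14. Taf7, which lies within the array of clusters and encodes a general transcription factor subunit, was at 16.0 ± 1.05 CPM in KO-labelled and 17.5 ± 1.49 CPM (SD, n = 2) in WT-labelled libraries, a log2 difference of -0.12 (SE 0.20, edgeR adjusted p 0.694). Ndufa2, a subunit of the respiratory chain, was the gene that rose (log2 0.66, SE 0.15, edgeR adjusted p 0.00978), and Ndfip1 the one that fell (log2 -0.37). In Het- against WT-labelled libraries 2 rose and 1 fell, against 13.1% and 12.2% of all genes. In KO- against Het-labelled libraries 1 rose, against 4.33% of all genes.

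Apart from those of stroma, markers of other cells were low, and several sums differed between groups. The 12 neuron markers summed to 44.3 and 35.9 CPM under the KO label, 35.7 and 32.8 under Het, 24.4 and 24.0 under WT and 32.1 and 30.5 CPM under SmoM2. Elavl4 alone made most of this sum except in SmoM2-labelled replicate 2, where it was at 13.9 CPM and the other 11 at 16.6 CPM. Elavl4 rose by 1.18 on the log2 scale from WT to KO (SE 0.23, edgeR adjusted p 0.00453). The other 11 summed to 7.53 and 6.97 CPM under KO and 7.92 and 11.5 CPM under WT. Elavl3, Snap25 and Th had at most 3 counts in every library. The 8 markers of glia and neural crest summed to between 8.09 and 13.8 CPM, with S100b, Foxd3 and Cdh19 at 3 counts or fewer. The 9 stromal markers summed to 813 and 308 CPM under the KO label, 371 and 536 under Het, 547 and 357 under WT and 711 and 579 CPM under SmoM2. They moved in opposite directions: in KO- against WT-labelled libraries Foxd1 fell by 4.48 on the log2 scale, while Meis1 rose by 2.68 and Tcf21 by 2.07, each with an edgeR adjusted p of at most 0.000301. Col1a1 was at 380 CPM in KO-labelled replicate 1 and 32.9 CPM in replicate 2. The 11 nephron progenitor markers summed to 5494 and 5038 CPM under the KO label and 6495 and 6066 CPM under Het. Under WT the sums were 4589 and 4288 CPM, and under SmoM2 4350 and 4282 CPM. In KO- against WT-labelled libraries 3 of the 11 were called higher by edgeR, 27.3% against 11.6% of all genes, and none lower. In Het- against WT-labelled libraries 5 were called higher, 45.5% against 13.1%, and 1 lower, 9.09% against 12.2%. The 4 erythroid markers summed to 15.9 and 5.44 CPM under the KO label, 9.62 and 9.51 under Het, 2.14 and 2.07 under WT and 3.48 and 0.925 CPM under SmoM2. Hba-a1, a haemoglobin gene, led this sum and rose in KO- and Het- against WT-labelled libraries (log2 2.95 and 2.71, edgeR adjusted p 0.00993 and 0.0123). The 4 immune markers summed to between 13.9 and 46.9 CPM, and nearly all of it was Cd68, at 44.8 and 41.3 CPM under Het, while the other 3 together stayed at or below 5.98 CPM in every library. Endothelial markers summed to between 0.267 and 3.397 CPM. Collecting duct markers summed to 13.1 and 19.2 CPM under the KO label and 2.67 and 3.74 CPM under Het. Under WT they summed to 15.1 and 13.7 CPM, and under SmoM2 to 28.5 and 40.7 CPM. Without Wnt11, their marker of highest mean, the sums were 9.96 and 18.1 CPM under KO and 1.47 and 3.06 CPM under Het. They were then 5.31 and 6.21 CPM under WT and 4.40 and 6.47 CPM under SmoM2. Pecam1, Wnt9b, Gata3 and Aqp2 had 3 counts or fewer in every library. The part of these cells in the levels of the clusters was not tested.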

How the data were processed

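RNA was measured in 8 libraries, 2 in each of 4 groups, grouped and numbered as labelled. Per the file headers, the authors deposited raw read counts per gene, RPKM values and gene lengths in a single table. STAR, featureCounts and Subread and the build mm10 are named in the submitters' processing notes, without roles or settings. The strand setting is not given in the sources used here. The authors' RPKM values imply library totals, of which the listed counts were 81.1% to 83.3%.

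Tests used edgeR 4.0.16 under R 4.3.3, with filterByExpr on the groups, TMM scaling and a quasi-likelihood fit with a mean per group over all 8 libraries, with p-values adjusted over 13459 genes, or 13448 with shared reads counted a single time. Standard errors and intervals are those the quasi-likelihood statistic implies. Levels are CPM at the scaled library size. A gene with at most 3 counts in both libraries of a group was at the floor there. Floors cover counting error only, not the shortfall of own reads. The planned test used sums of counts as deposited. The split into shared and own reads was added after the table was seen to repeat reads. DESeq2 1.42.0, other scalings and filters, trends over length and GC content, a replicate block and leaving out single libraries served as alternatives. The fit was tested on simulated data. With 2 libraries against 2, an exact permutation test cannot pass the threshold, so none was made.

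Named in full are the cluster sums, members called in a comparison and averaging 0 or more log2 CPM, and the 5 members of highest RPKM, of which, because they repeat shared reads, only Pcdhgc3 and Pcdhgb7 are described. The members called below that level, Pcdhac2 and Pcdhgb8, whose tests are not used, and members without a call are named after their values were seen. The members and lists were chosen with earlier results of these data known. No sequence is printed for these genes.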

Additional observations from a re-analysis of the deposited data

How the results depend on the processing

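Most settings kept the direction and call of the cluster sums and the number of members called. Apart from leaving out single libraries, 112 of these values stayed the same, 5 moved, 3 became weaker, 3 stronger and 1 reversed. The 5 that moved are numbers of members called. Values that stayed the same include sums that were not called under either setting. The alternatives counting shared reads a single time were chosen after seeing the data. Among sums of counts as deposited, the KO- against WT-labelled alpha change was -0.68 with length trends and -0.67 with GC and length trends removed, and the beta change was -0.35 with both removed, none of them called. KO- against Het-labelled gamma was called by DESeq2 (-0.39) and with every gene tested (-0.37), and alpha with every gene tested (-0.64). SmoM2- against WT-labelled beta reversed to -0.034 with library totals from RPKM. Members called in KO- against WT-labelled libraries numbered 3, but 5 with every gene tested and 7 with shared reads counted a single time. Those in Het- against WT-labelled libraries numbered 3, but 0 by DESeq2 and 5 counted a single time. In KO- against Het-labelled libraries they numbered 3, but 6 counted a single time. Each number counted a single time includes Pcdhac2, Pcdhgb8 or both, whose tests are not used. Without these genes 6 were lower in KO- against WT-labelled libraries and 5 lower in KO- against Het-labelled libraries. In Het- against WT-labelled libraries 2 were then higher and 1 lower. The cause was not tested, except that counting shared reads a single time removes them from each member.

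On own reads, with Pcdhac2 and Pcdhgb8 counted, the 7 members called in KO- against WT-labelled libraries became 4 with length trends removed, and the 6 in KO- against Het-labelled libraries became 3 with length trends and 2 with GC and length trends removed. With every gene tested, Het- against WT-labelled calls went from 5 to 4 higher and 4 lower. The Pcdh gamma sum counted a single time was called by DESeq2 in KO- against WT-labelled (-0.38, adjusted p 0.0230) and KO- against Het-labelled libraries (adjusted p 0.00803).

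Leaving out single libraries gave ranges of 1 to 3 members called in KO against WT, 0 to 3 in Het against WT, 0 in SmoM2 against WT and 0 to 4 in KO against Het. For sums as deposited, alpha ranged from -1.16 to -0.64, beta from -0.440 to -0.399 and gamma from -0.31 to -0.06 in KO against WT. In Het against WT alpha ranged from -0.65 to 0.023, beta from 0.03 to 0.13 and gamma from 0.06 to 0.28. In SmoM2 against WT alpha ranged from -0.113 to 0.25, beta from -0.0049 to 0.027 and gamma from 0.04 to 0.29. In KO against Het alpha ranged from -0.93 to -0.26, beta from -0.57 to -0.467 and gamma from -0.49 to -0.24. A lone library of a group was assumed to vary like the other groups.

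The replicate numbers share no stated litter or day. In the WT- and SmoM2-labelled libraries replicate 1 was male and replicate 2 female, so replicate number and sex cannot be told apart there. Deviations of same-numbered libraries correlated at 0.0821, -0.0190, 0.391 and -0.0606 in the KO against WT, Het against WT, SmoM2 against WT and KO against Het comparisons. With the replicate block, the KO against WT changes as deposited were -0.90 for alpha and -0.43 for beta, no call of a sum as deposited changed, the KO against Het Pcdh gamma sum counted a single time was called (edgeR adjusted p 0.0481), and genes called in SmoM2 against WT went from 30 to 54. Depth limits the alpha cluster, with 12 to 88 reads per library.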
